A study of Homo sapiens with 4 samples.

Results

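The loci of HLX, RAB31 and EIF1B were examined in chromatin accessibility data of the cell line HL-60, which was derived from a human promyelocytic leukemia and matures towards granulocytes in all-trans retinoic acid (ATRA). In the ATAC-seq assay the transposase Tn5 inserts sequencing adapters into accessible DNA, and a peak is a stretch where such insertions pile up. The ATRA group was grown in 1 µM ATRA over 4 days and the control group in the same volume of the ethanol solvent, with medium and agent renewed once in both groups. Each group had 2 libraries, which the study describes as independent biological replicates of this single cell line. A site was defined as a set of peaks, from any of the 4 libraries, that overlapped by at least 1 bp. A locus was the gene body with 100 kb on either side, and the 3 loci held 52 of the 78063 sites. The genes, 3 of 20163 protein-coding genes, were chosen by peak presence and score: some of the best-ranked ATRA-only sites of the genome, those with a peak in both ATRA libraries and in neither control library, lie at them. The leading site of each gene therefore differed between the groups by selection, and the question asked of the data was whether neighbouring sites opened too. All values are given as a description without a test, and 2 libraries against 2 cannot give a two-sided exact permutation p-value below 0.333.

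HLX encodes a homeobox transcription factor of blood progenitors that takes part in myeloid development. RAB31 encodes a small GTPase of the RAB5 subfamily, which moves between a GDP-bound and a GTP-bound state and directs vesicles between the trans-Golgi network and endosomes. EIF1B is a close relative of the translation initiation factor EIF1, which helps the ribosome to select the start codon. ATRA acts through retinoic acid receptors, which bind DNA together with retinoid X receptors at direct repeats of a short motif, mostly in promoters and enhancers. Enhancers of one gene often lie in groups, in its introns or in the sequence around it.

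The lists held 43494 peaks in ATRA replicate 1, 63541 in ATRA replicate 2, 42081 in control replicate 1 and 45903 in control replicate 2. ATRA replicate 2 stood apart, with a median peak width of 416 bp against 291 to 328 bp in the other libraries, and the part that its longer list and wider peaks have in the results below was not tested. Of 7 myeloid marker genes, SPI1, CEBPE and CD33 had a peak within 1 kb of a transcription start site (TSS) in all 4 libraries, CEBPA in 3, MPO in 2, CSF3R in 1 and ELANE in none. Of 6 marker genes of other cell types, 5 had no such peak in any library.

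The leading site was taken as the ATRA-only site of a locus with the highest score percentile, averaged over the ATRA libraries. The score is the peak caller's own value, and its percentile is the rank of a peak within its own list, where 100 is the strongest peak. In the order of all 6976 ATRA-only sites, the leading sites of HLX, EIF1B and RAB31 were at ranks 3, 5 and 6. The central 200 bp of the leading sites of HLX and RAB31 are shown because they are the sequences that brought these genes to attention. A weaker RAB31 site near the gene start is added because its central 200 bp hold a PU.1 motif. The central 200 bp of those leading sites lack this motif, but the leading RAB31 site holds it elsewhere in its length. All sequences shown are reference sequence of GRCh37 (hg19), plus strand, 5′ to 3′, and capitals mark the matches to the motifs described below.
HLX leading site, chr1:221088232-221088431: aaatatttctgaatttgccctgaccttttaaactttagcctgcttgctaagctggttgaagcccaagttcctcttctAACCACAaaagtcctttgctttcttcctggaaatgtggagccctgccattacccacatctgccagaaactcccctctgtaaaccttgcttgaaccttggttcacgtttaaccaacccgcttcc
RAB31 leading site, chr18:9755873-9756072: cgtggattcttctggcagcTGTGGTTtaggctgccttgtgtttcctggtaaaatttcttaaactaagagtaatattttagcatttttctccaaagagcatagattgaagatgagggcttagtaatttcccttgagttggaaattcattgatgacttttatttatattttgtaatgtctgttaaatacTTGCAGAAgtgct
RAB31 site 4.57 kb past the TSS, chr18:9712746-9712945: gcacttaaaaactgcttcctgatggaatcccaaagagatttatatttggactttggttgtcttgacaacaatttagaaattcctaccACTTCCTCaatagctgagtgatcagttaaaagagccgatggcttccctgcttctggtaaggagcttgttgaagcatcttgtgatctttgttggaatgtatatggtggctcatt

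The HLX gene (ENSG00000136630) lies on the plus strand of chromosome 1 at 221052773 to 221058401. Its locus held 6 sites, of which 2 were ATRA-only, 2 had a peak in all 4 libraries and 2 had a peak in ATRA replicate 2 alone. Over all sites of the genome, 8.94% were ATRA-only, 30.3% had a peak in all 4 libraries and 19.1% had a peak in ATRA replicate 2 alone. No site of the HLX locus was control-only, that is, with a peak in both control libraries and in neither ATRA library, a pattern of 3.37% of all sites. Without ATRA replicate 1 the number of HLX sites with ATRA peaks and no control peak became 4, since the sites seen in ATRA replicate 2 alone then count.

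The leading HLX site spanned 221087829 to 221088835 on chromosome 1, in intergenic sequence 35.6 kb downstream of the TSS. Its peak had a score percentile of 93.5 in ATRA replicate 1 and 97.3 in ATRA replicate 2, which is place 2835 of 43494 and place 1715 of 63541 in the lists. The peak was 761 bp long in ATRA replicate 1 and 998 bp in ATRA replicate 2. There was no peak at this place in either control library. It was an isolated site: no other ATRA-only site lay within 100 kb of it, and the nearest was 111.2 kb away. Over all ATRA-only sites, 52.7% had another within 100 kb and the median distance to the nearest was 90.3 kb.

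The second ATRA-only site of the HLX locus was weak and distant. It lay 75.6 kb upstream of the TSS, in an intron of the neighbouring gene MTARC1 and of an overlapping gene model (ENSG00000286231) that reaches into HLX. Its percentile was 24.8 in ATRA replicate 1 and 28.2 in ATRA replicate 2, and it was at rank 4986 of the ATRA-only sites. It was lost when the same number of peaks was taken from each library. The pair of sites with a peak in ATRA replicate 2 alone had percentiles of 2.15 (74.1 kb upstream, in an exon of MTARC1) and 27.3 (29.5 kb downstream, in intergenic sequence).

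The HLX promoter was open in all 4 libraries. The percentile of this site was 89.3 and 90.6 in the ATRA libraries (replicate 1 first, as in all pairs of values below) and 80.6 and 76.2 in the control libraries. Both ATRA values were above both control values, a difference of means of 11.6 that was larger than that of 70.5% of the 23653 sites with a peak in every library. At 29.2% of those sites both ATRA percentiles were above both control percentiles, and at 12.8% both were below. Peaks at the HLX promoter covered 1553 and 1644 bp in the ATRA libraries and 912 and 587 bp in the control libraries. The groups did not overlap, the ratio of the means was 2.13, and 96.3% of the sites with a peak in every library had a smaller ratio. The covered length did not overlap in this direction at 37.1% of such sites, and at 3.97% it did so in the opposite direction.

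The other HLX site open in every library lay 69.1 kb upstream, in an intron of MTARC1. Its percentile was 53.9 and 89.8 in the ATRA libraries and 67.2 and 92.1 in the control libraries, so the groups overlapped. It covered 267 and 553 bp against 251 and 245 bp, where the ATRA values were above the control values but the ATRA libraries differed more from each other than ATRA replicate 1 did from the controls.

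**Figure D1:**
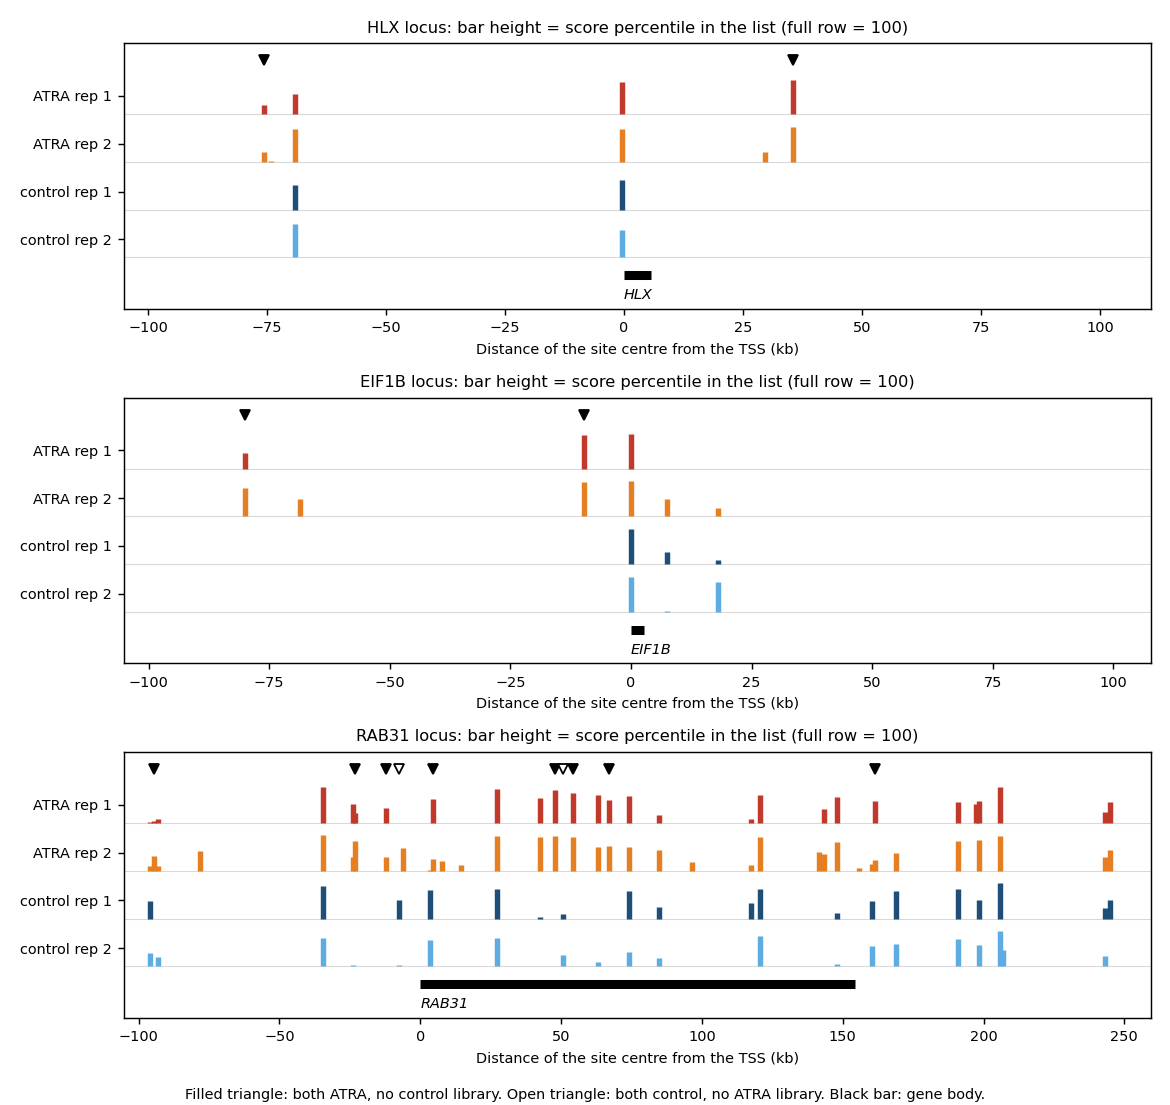
Peaks at the HLX, EIF1B and RAB31 loci, with the distance of each site's centre from the TSS (kb) on the horizontal axis and a row per library in which the bar height is the score percentile within that library's list (full row = 100). Filled triangles mark ATRA-only sites, open triangles control-only sites and the black bar the gene body; HLX and EIF1B each had 2 filled triangles, whereas RAB31 had 8, of which 4 lay in the gene.

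The RAB31 gene (ENSG00000168461) lies on the plus strand of chromosome 18 at 9708272 to 9862548 and is 154 kb long. Its locus held 40 sites, and 8 of them were ATRA-only. Upstream of the gene there were 3, in its body 4 and downstream 1. The other sites were 11 with a peak in all 4 libraries, 7 with peaks in both ATRA libraries and 1 control library, 7 in ATRA replicate 2 alone, 3 in both control libraries and ATRA replicate 2, 2 control-only, 1 in ATRA replicate 1 alone and 1 in control replicate 2 alone. Peaks in both ATRA libraries and 1 control library made up 8.95% of all sites of the genome, and peaks in both control libraries and ATRA replicate 2 made up 5.52%. Without ATRA replicate 1 the count of 8 became 15, and without control replicate 2 it became 12.

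A count of 8 or more ATRA-only sites was reached by 12 of the 20163 protein-coding genes, or 0.0595% of them, while 26.0% had at least the 2 of HLX and EIF1B. The RAB31 locus was also long and dense in sites of every kind, since 0.0942% of genes had 40 or more sites. As a share, 20.0% of the RAB31 sites were ATRA-only, and 12.9% of the 16400 genes with at least 6 sites had this share or more. The share was 33.3% at HLX and at EIF1B, which 2.52% of those genes reached, on 6 sites each. These counts and shares of ATRA-only sites include the leading site, for which each gene was chosen. The places of the 3 genes among all genes are therefore a description, and no such place is given without the leading site. When the leading site was left out, 20.0% of the other HLX sites, 17.9% of the other RAB31 sites and 20.0% of the other EIF1B sites were ATRA-only. At HLX and EIF1B this share was 1 site of 5. Counted within 100 kb of the leading site instead, 0 of 3 other sites were ATRA-only at HLX, 1 of 5 at EIF1B and 5 of 23 at RAB31, and on the same basis 10.6% of the sites around all ATRA-only sites were ATRA-only.

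**Figure D2:**
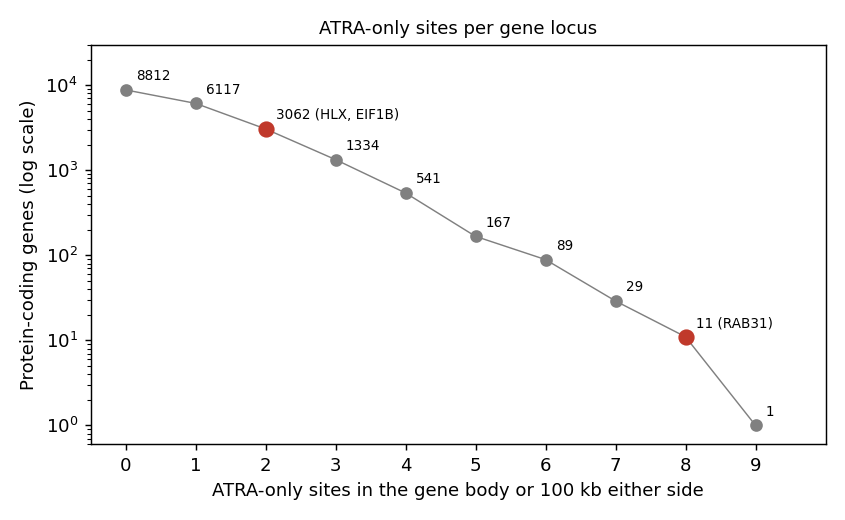
Number of protein-coding genes (vertical, log scale) by the number of ATRA-only sites in the gene body or 100 kb either side (horizontal), with the points that hold the 3 genes in red. HLX and EIF1B were among 3062 genes with 2 such sites and RAB31 was among 11 genes with 8, and 1 gene had 9.

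The leading RAB31 site spanned 9755384 to 9756562 on chromosome 18, in intron 1, 47.7 kb past the TSS. Its percentile was 90.3 in ATRA replicate 1 and 96.2 in ATRA replicate 2, with peaks of 923 and 1098 bp, and no peak was called in either control library. Unlike the HLX site, it had close neighbours of the same kind. The next ATRA-only site was 6.67 kb away, and 5 of the 23 other sites within 100 kb were ATRA-only.

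A run of ATRA-only sites lay in introns 1 and 2. The site 54.4 kb past the TSS, at 9762237 to 9763040, had percentiles of 83.6 and 93.5 in ATRA replicates 1 and 2 and was at rank 39 of all ATRA-only sites. The site 67.1 kb past the TSS, at 9774951 to 9775833 in intron 2, had percentiles of 62.4 and 68.9 and was at rank 776. With the leading site, these 3 lay within 20.45 kb. Both neighbours were stronger in their lists than the middle ATRA-only site of the genome, whose mean percentile was 37.5. The leading site was stronger than this by selection. The run was not alone in this, since 10 of the 12 ATRA-only sites of the 3 loci, leading sites included, were stronger than that middle site. On the outer side of the run, 42.6 kb past the TSS, was a site with percentiles of 69.0 and 93.5 in the ATRA libraries, 3.85 in control replicate 1 and no peak in control replicate 2. Inside the run, 63.1 kb past the TSS, was a site with percentiles of 77.9 and 65.2 in the ATRA libraries, no peak in control replicate 1 and 11.2 in control replicate 2. Both had a control peak near the bottom of its list, so they were ATRA-only by all but a weak peak of a single library. Not every site of the run went this way, since a control-only site with percentiles of 12.7 and 31.9 lay between the leading site and the next, 50.6 kb past the TSS.

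The other ATRA-only sites of RAB31 were weaker or uneven between the ATRA libraries. The site 4.57 kb past the TSS, in intron 1, had percentiles of 66.2 and 33.3, and the site 161.6 kb past the TSS, downstream of the gene end, had 59.9 and 30.6. Upstream of the gene, the site at 23.2 kb had 26.6 and 81.2 and the site at 12008 bp had 41.9 and 38.7. The most distant, 94.5 kb upstream in an intron of PPP4R1, a regulatory subunit gene of protein phosphatase 4, had 4.53 and 41.0. Of these 5 sites, 4 differed between the ATRA replicates by 29.3 percentile points or more, and the site 12008 bp upstream differed by 3.18.

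**Figure D3:**
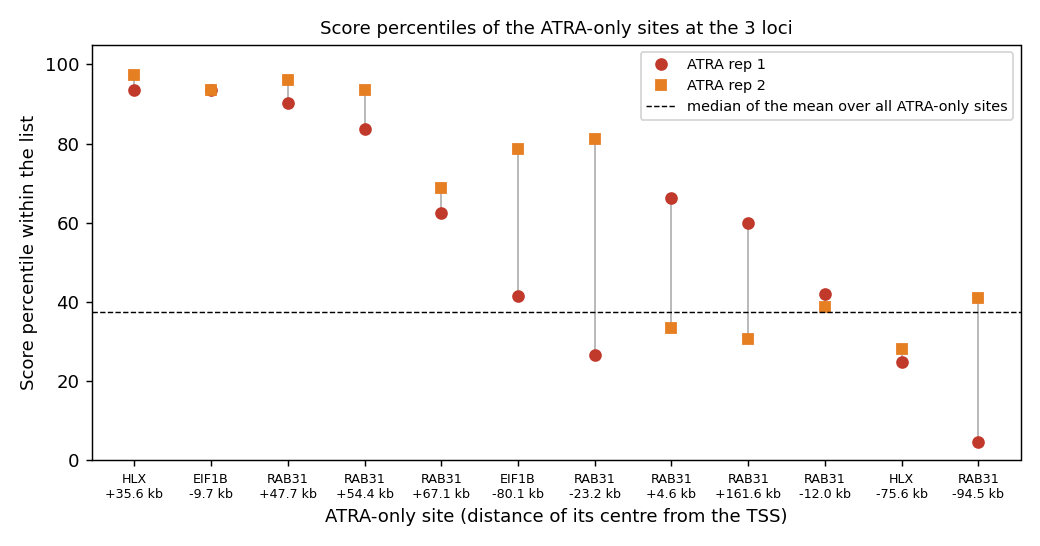
Score percentile within the list (vertical) of the 12 ATRA-only sites of the 3 loci in ATRA replicate 1 (circles) and ATRA replicate 2 (squares), ordered by their mean, each named by gene and distance from the TSS (kb). The 3 leading sites and the RAB31 site at 54.4 kb lay between 83.6 and 97.3, and the dashed line marks the middle of all ATRA-only sites (37.5).

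The start of the RAB31 gene had no peak in any library. The nearest peak edge was 4354 and 3198 bp from the TSS in the ATRA libraries and 3163 and 3145 bp from it in the control libraries. The peak nearest to the TSS in the controls belonged to a site 3.37 kb into intron 1, with percentiles of 78.4 and 72.5 in the control libraries, 1.34 in ATRA replicate 2 and no peak in ATRA replicate 1. It was thus strong in both controls and at the bottom of its list or missing after ATRA, and it lay 1.20 kb from the ATRA-only site at 4.57 kb. The control-only site 7.65 kb upstream of the TSS had percentiles of 52.4 and 5.18. A further pair of sites downstream of the gene had the same presence pattern as the intron site, with a peak in ATRA replicate 2 and both controls. At 160.4 kb past the TSS the values were 18.9 in ATRA replicate 2 and 48.2 and 57.1 in the controls, and at 169.1 kb they were 49.0 in ATRA replicate 2 and 77.0 and 60.4 in the controls.

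Among the 11 RAB31 sites open in every library, both ATRA percentiles were above both control percentiles at 4, both were below at 1, and the groups overlapped at 6. Over all sites open in every library, both were above at 29.2% and both below at 12.8%. The largest difference was at a site 148 kb past the TSS, at 9856137 to 9856565, in intron 6 of the main transcript and in an exon of another transcript of RAB31. Its percentile was 71.3 and 78.0 with ATRA and 16.5 and 5.86 without. The groups were far apart, with a difference of means of 63.4, and 99.7% of all sites open in every library had a smaller difference. The peak covered 318 and 429 bp in the ATRA libraries and 249 and 217 bp in the control libraries.

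The strongest RAB31 site after ATRA was also open in the control cells. This intergenic site, 34.6 kb upstream of the TSS, had percentiles of 99.3 and 99.6 in the ATRA libraries and 89.5 and 77.7 in the control libraries, and it covered 700 and 884 bp against 564 and 539 bp. The site 27.2 kb past the TSS, in intron 1 and in an exon of the processed pseudogene ENSG00000266891, had 94.1 and 96.8 against 81.3 and 79.4. The site 198 kb past the TSS had 61.4 and 85.7 against 50.3 and 60.04, where ATRA replicate 1 was 1.40 points above control replicate 2. In the opposite direction, a site in an exon of PPP4R1, 95.8 kb upstream, had 3.20 and 11.9 in the ATRA libraries and 49.0 and 36.8 in the control libraries. The promoter of VAPA, a neighbouring gene for a membrane protein of the endoplasmic reticulum, was among the overlapping sites, with 98.2 and 96.8 against 97.9 and 97.1. Covered length was greater in both ATRA libraries than in both controls at 6 of the 11 sites and overlapped at 5. Over all sites open in every library, it was greater in both ATRA libraries at 37.1% and smaller in both at 3.97%.

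The EIF1B gene (ENSG00000114784) lies on the plus strand of chromosome 3 at 40351198 to 40353915. Its locus held 6 sites, of which 2 were ATRA-only, 1 had a peak in all 4 libraries, 1 had a peak in ATRA replicate 2 alone and 2 had a peak in both control libraries and ATRA replicate 2. The leading site lay 9.72 kb upstream of the TSS, in an exon of the antisense transcript gene EIF1B-AS1. Its percentile was 93.5 in both ATRA libraries, with peaks of 674 and 716 bp, and there was no peak in either control library. It was the most even of the leading sites between the replicates.

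The second ATRA-only site of EIF1B lay 80.1 kb upstream, in an intron of EIF1B-AS1 and of MYRIP, a gene for a linker between myosin and a Rab protein. Its percentile was 41.6 in ATRA replicate 1 and 78.8 in ATRA replicate 2. It was also the nearest ATRA-only site to the leading one, at 70.4 kb. The site seen in ATRA replicate 2 alone, 68.6 kb upstream in an exon of EIF1B-AS1, had a percentile of 46.6.

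The EIF1B promoter was open in all 4 libraries, near the top of each list. Its percentile was 95.8 and 96.2 in the ATRA libraries and 95.7 and 96.3 in the control libraries, so the groups overlapped and the means differed by -0.016 points (ATRA minus control). The peak covered 917 and 1057 bp in the ATRA libraries and 670 and 517 bp in the controls, with no overlap. Downstream of the gene, both sites were missing in ATRA replicate 1. The site 7.55 kb past the TSS had 47.8 in ATRA replicate 2 and 33.4 and 2.17 in the controls, and the site 18.1 kb past it had 24.0 in ATRA replicate 2 and 11.9 and 81.2 in the controls, so neither was higher in a whole group.

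**Figure D4:**
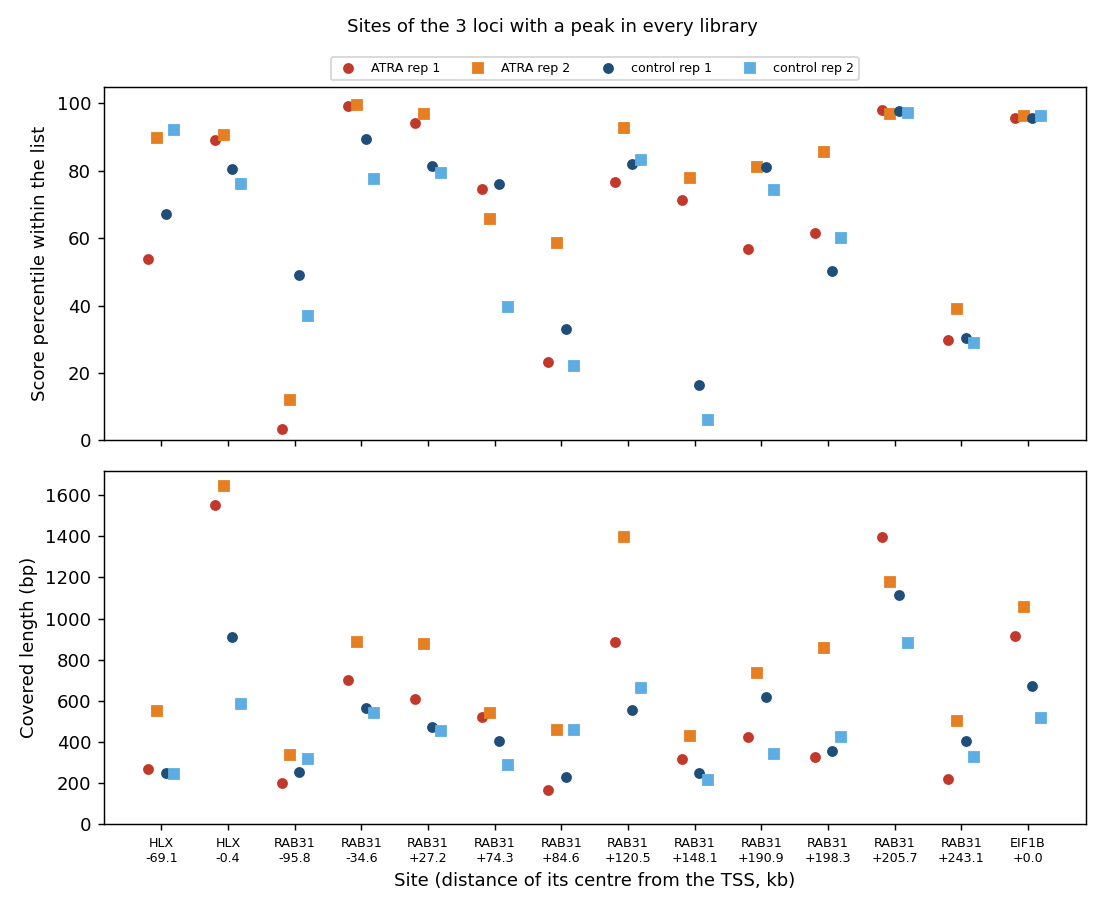
Sites of the 3 loci with a peak in every library, named by gene and distance from the TSS (kb), with the score percentile within the list above and the covered length (bp) below for each library. The RAB31 site at 148.1 kb had ATRA percentiles of 71.3 and 78.0 and control percentiles of 16.5 and 5.86, and the HLX promoter covered 1553 and 1644 bp after ATRA against 912 and 587 bp.

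Of the 14 sites of the 3 loci that were open in every library, 11 lay at RAB31. The percentile was higher in both ATRA libraries at 5 of the 14, lower in both at 1 and overlapping at 8. Over all sites open in every library, it was higher in both at 29.2% and lower in both at 12.8%. The median difference of the means was 8.19 points, compared with 2.83 over all sites open in every library. Covered length was higher in both ATRA libraries at 9 of the 14 and overlapped at 5. Over all sites open in every library, it was higher in both at 37.1% and lower in both at 3.97%. The median ratio of ATRA over control was 1.53 against 1.25 over all such sites. Outside the leading sites, peaks of the HLX locus covered 2023 and 3202 bp in the ATRA libraries and 1163 and 832 bp in the control libraries. Those of the RAB31 locus covered 12171 and 21709 bp in the ATRA libraries and 8446 and 8384 bp in the control libraries. Those of the EIF1B locus covered 1269 and 2599 bp in the ATRA libraries and 1302 and 942 bp in the control libraries. The ATRA values were above both control values at HLX and RAB31 and overlapped them at EIF1B, and ATRA replicate 2 was the highest library at each locus. These sums include the other ATRA-only sites, which have no covered length in the controls by definition. The share of all genes with the same order of the groups was not computed, so the order is not read as particular to these loci. Over the whole genome, too, ATRA replicate 2 covered the most, with 31.6 Mb against 16.3 to 17.5 Mb in the other libraries.

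The sequences were searched on both strands in the central 200 bp of each site. The motifs were those of GATA factors (AGATAA, or the same with T as the first base), PU.1 (GAGGAAGT), RUNX (AACCACA), CEBP (TTGCNNAA), AP-1 (TGACTCA or TGAGTCA, each the other's reverse complement), E-box (CACGTG), ETS (CCGGAAGT, which shares the core GGAAGT with the PU.1 motif), IRF (GAAANNGAAA), CTCF and the retinoic acid receptor repeats DR1, DR2 and DR5, whose half-site was AGGTCA or a form of it with G as the first base, T as the third base, or both. The leading HLX site held RUNX, and the leading RAB31 site held RUNX and CEBP. The RAB31 site at 4.57 kb held PU.1, and so did the one at 161.6 kb downstream.

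Over the 12 ATRA-only sites of the 3 loci, 7 held at least 1 motif in the central 200 bp and 5 held none there. At least 1 motif was present in 56.4% of all ATRA-only sites and in 51.9% of all sites, so the share at the 3 loci, 58.3%, was near that of ATRA-only sites in general. RUNX was found at 3, against 11.96% of all ATRA-only sites and 8.55% of all sites. PU.1 was found at 2 (13.3% of all ATRA-only sites and 8.94% of all sites) and CEBP at 2 (15.3% and 12.3%). GATA was found at 1 (14.3% and 18.8%) and AP-1 at 1 (7.999% and 5.72%). No match to DR1, DR2, DR5, IRF, ETS, CTCF or E-box lay in these windows. Outside them, GATA was found at the leading EIF1B site and at 4 RAB31 sites past the TSS (4.57, 54.4, 67.1 and 161.6 kb). The RAB31 site 23.2 kb upstream held it there too, and IRF lay at that site and at the one at 67.1 kb. Over their whole length, the RAB31 site 94.5 kb upstream and the EIF1B site 80.1 kb upstream held no motif. Whole-length shares of all sites are not given, so these matches are a description. The direct repeats were rare among all ATRA-only sites and among all sites, though less so among the former. DR1 was found in 0.215% of the ATRA-only and 0.0807% of all sites, DR2 in 0.315% and 0.106%, and DR5 in 0.387% and 0.0974%. Likewise, IRF was found in 4.44% and 3.40%, ETS in 0.545% and 1.11%, CTCF in 3.18% and 5.87%, and E-box in 3.30% and 3.73%.

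None of the 12 ATRA-only sites was at a promoter: 7 were in introns, 4 in intergenic sequence and 1 in an exon. The same shares over all ATRA-only sites are not given here, so these positions are not read as particular to the loci. The paper reports a lower proportion of promoters among its condition-specific peaks than among the peaks that overlapped between the groups. The 12 sites spanned 323 to 1179 bp, with a median of 760 bp against 421 bp for all ATRA-only sites. They include the 3 leading sites, chosen by score, which spanned 716 to 1179 bp, and no median without these was computed. The GC content of the central 200 bp of the 12 sites was between 34.5% and 60.5%. Its median was 45.2%, close to the 46% of all ATRA-only sites. The peak was longer in ATRA replicate 2 than in ATRA replicate 1 at all 12, as it was at 83.8% of all ATRA-only sites.

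The sites nearest in rank to the leading sites were ATRA-only sites at other genes. Rank 2, directly above HLX, had percentiles of 97.8 and 93.7 and was nearest to RUNX2, with the TSS 259.6 kb away. Rank 4, between HLX and EIF1B, had 95.7 and 91.9 and lay 15.1 kb from a TSS of DNAH17. Rank 7, directly below RAB31, had 94.9 and 90.8 and lay 2.09 kb from a TSS of G0S2. These places follow from the values by which the genes were chosen and are given as a description.

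The limits of the loci cut through no ATRA-only site. The outermost sites inside the HLX locus lay 75.5 kb before and 29.4 kb past the gene, and the first outside lay 102.3 and 114.9 kb away. At RAB31 the outermost inside lay 95.6 and 90.4 kb away and the first outside 132 and 109 kb, and at EIF1B they lay 79.8 and 15.2 kb and 118 and 140.3 kb away. Each of these outside sites had a peak in all 4 libraries.

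Genes of related function were counted for ATRA-only sites within the same reach, which 56.3% of all protein-coding genes had. Of 10 homeobox genes of blood cells, 6 had at least 1. VENTX, a regulator of myeloid maturation, had the best-ranked, at rank 158 with percentiles of 76.4 and 85.0. HOXA10 and HOXA9 lie side by side and shared a site at rank 3077. Of 15 genes of the RAB5 subfamily and its regulators, 6 had at least 1. RIN3, an exchange factor that loads RAB5-type GTPases with GTP, had 6 ATRA-only sites, the best at rank 662 with percentiles of 57.6 and 77.6. RAB5B, RAB20 and RAB5C, small GTPases like RAB31, had their best sites at ranks 1104, 2348 and 3570. Of 12 factors of start codon selection, 5 had at least 1, led by the RNA helicase gene EIF4A1 at rank 151 with percentiles of 79.7 and 82.3. EIF3A, EIF2S2 and EIF1 had their best sites at ranks 2630, 2838 and 2905. The shares of these lists were near or below that of all genes, and every listed gene ranked below HLX, RAB31 and EIF1B, which were chosen for their rank. Control-only sites lay within the same reach of 1 of the 10 homeobox genes, 3 of the 15 RAB5 genes and 4 of the 12 start codon factors. Of all protein-coding genes, 24.8% had such a site. VENTX and RIN3 each had 2 control-only sites.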

How the data were processed

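Peaks of 4 ATAC-seq libraries of HL-60, 2 per group by their titles, were analysed. Per the labels and the study's methods, the authors removed adapters with cutadapt, mapped reads to hg19 with Bowtie or Bowtie2 (the sources differ), and called peaks in each library with MACS2 at default settings. Treatment of duplicates and of the Tn5 offset is not given in the sources used here. Each deposited peak had coordinates (chromosome, start and end, with other columns for name and score), and the deposited score, with a ceiling of 3100 and an unstated scale, was used only for ranks within a list. Read counts were not used and depth is unknown, so no interval is given, and a deeper library can yield more and wider peaks.

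Peaks overlapping by at least 1 bp formed sites, and lengths were summed per library and site. Genes came from GENCODE release 44 lifted to GRCh37, and 0 of 24 chromosomes were missing. Coordinates are 1-based. A promoter site had its centre from 1 kb upstream to 100 bp downstream of a protein-coding TSS. Python 3.11.15, numpy 2.4.6, pandas 2.3.3, pysam 0.24.0, samtools 1.23.1, bedtools 2.31.1 and matplotlib 3.10.9 were used. Site building and motif search were tested on simulated data. No statistical test was run. The genes, lists and comparisons were chosen with earlier results of these data known. Named genes were the 3 genes, protein-coding genes in their windows, genes nearest to the sites ranked beside the leading sites, and at most 4 genes per list by best rank. EIF1B-AS1 and ENSG00000266891, outside this rule, were named after their values were seen. Alternatives were a larger required overlap, the upper 50% of each list, equal list lengths, peaks set to 200 bp, specific peaks among those shared by replicates, windows of 50 and 200 kb, ranks by width, and leaving out each library. Some items, among them single genes of the fixed lists and a sequence, are not reported here.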

Additional observations from a re-analysis of the deposited data

How the results depend on the processing

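Of 2 ATRA-only sites, HLX kept 1 in the upper 50% of each list by score, 1 with list lengths made equal and 1 with 50 kb either side. EIF1B kept 1 of 2 in the upper 50% and 1 with 50 kb either side. RAB31 had 8 sites, also with equal lengths, and 15 when specific sites were defined from peaks shared by replicates, where a peak in a single control library does not count. The genome total of 6976 became 3745 in the upper 50% and 14073 with shared peaks. With equal numbers and the upper 50% together, chosen after seeing the data, the counts were 1 for HLX, 5 for RAB31, 1 for EIF1B and 2494 for the genome. Leaving out single libraries gave 2 to 4 sites for HLX, 10 to 15 for RAB31, 2 to 3 for EIF1B and 10215 to 22008 for the genome, with the highest values of each without ATRA replicate 1, and 10787 for the genome without control replicate 2. The mean percentile of the leading EIF1B site, 93.5, was 91.8 with equal numbers and 87.0 by peak width. On ATRA replicate 2 or 1 alone the leading site ranged from 93.5 to 97.3 for HLX, from 90.3 to 96.2 for RAB31 and stayed at 93.5 for EIF1B. The motifs found at the leading RAB31 site numbered 2 in the central 200 bp and 4 over the whole site, where PU.1 and AP-1 were found as well. Of the factors of start codon selection, 5 had an ATRA-only site, 3 with 50 kb and 8 with 200 kb either side, settings chosen after seeing the data. Except for the values given here, the counts of sites stayed within 1.5 times under the alternatives run. No paired analysis was possible because no result came from a test. The lists hold no read counts, so a site without a peak may be open below the threshold of the peak caller.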
